A study of Bos taurus with 3 samples.

Results

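The circadian clock genes and the genes of the PAR bZIP transcription factors were followed across cell states of the rumen epithelium. Of 10 listed members, 9 had a row under their symbol in the count matrix of 19533 rows, and *PER3* had none. The members are genes named for their role in the clock and were listed with earlier results of these data in view. The cells compared were chosen by measured values, the UMI counts of *DLK2*, *AOX1*, *GJA1* and *FOSB* in each cell, and these 4 genes were kept out of every test.

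Epithelium of the ventral sac of the rumen was taken from 3 adult, lactating Holstein dairy cows under 1 condition, with 1 library per cow and no treated or control group. The tissue was digested with EDTA, trypsin, collagenases and dispase at 37 °C, and transcripts were tagged with unique molecular identifiers (UMIs) in droplets. The authors had removed dead cells, low-quality cells, doublets and other cell types before deposit. The time of day at which each cow was sampled is not given in the sources used here, and cow and library cannot be told apart.

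Cells were put in 4 lineage classes. Cells with neither gene held no UMI of *DLK2*, *AOX1* or *GJA1*. *DLK2* cells held at least 1 UMI of *DLK2*, the gene by which granular cells were named in the study, and none of *AOX1* or *GJA1*. *DLK2* cells with *AOX1* (aldehyde oxidase) held at least 1 UMI of each and none of *GJA1*. *GJA1* cells held at least 2 UMIs of *GJA1*, the connexin that marks the channel-gap-like spinous cells of the study, and none of the other genes. Each class was divided into FOSB-zero cells, with no UMI of the immediate-early gene *FOSB*, and FOSB-high cells, with at least 2. The 8 states held 16500 of 20728 cells. UMIs were summed per cow and state, which gave 24 sums, and levels are given as UMIs per 1000000 UMIs (CPM), scaled by the TMM method. *DLK2* averaged 171.3 CPM in *DLK2* cells and *AOX1* 184.3 CPM in cells with *AOX1*, at median depths of 5503.5 to 12142 UMIs per cell. A cell that expresses either gene can thus hold no UMI of it and fall in a class without it. UMIs from outside the cell were not estimated, so the classes are mixed to an unknown degree.

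The circadian clock is a feedback loop of transcription that runs in most cells. *CLOCK* and *ARNTL* (BMAL1) activate the *PER* and *CRY* genes, whose proteins repress them in turn, while *NR1D1* and *NR1D2* repress *ARNTL*. The PAR bZIP factors DBP, TEF and HLF are outputs of this loop and carry its rhythm to metabolic genes. *BHLHE40* (DEC1) encodes a repressor of the same E-box sites and, like *PER1*, is known to respond within a short time to signals from outside the cell.

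Cows 1, 2 and 3 gave 38912809, 94856658 and 104189434 UMIs in 3369, 7401 and 9958 cells. The keratinocyte list (6 of 6 genes with a row, none at 0) summed to 110.6 to 178.9 UMIs per 10000 across the cows. The fibroblast, immune, endothelial, smooth muscle and melanocyte lists each summed to at most 0.0357. FOSB-high cells made up 54.1%, 70.4% and 9.71% of the cells in states of cows 1, 2 and 3. The libraries shared 5, 10 and 20 barcodes pairwise. The median depth was 13864 to 20772 UMIs per cell in the *GJA1* states and 5503.5 to 13802 in the other states. The smallest sum, of FOSB-high *DLK2* cells with *AOX1* in cow 3, held 28 cells.

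Over all cells *BHLHE40* (ENSBTAG00000009863) had 14648 UMIs, *DBP* (ENSBTAG00000006754) 7631 and *HLF* (ENSBTAG00000006618) 4612. *PER1* (ENSBTAG00000003889) had 2820 UMIs, *NR1D2* (ENSBTAG00000018024) 1186 and *CRY2* (ENSBTAG00000021223) 1136. *PER2* (ENSBTAG00000001879) had 827, *TEF* (ENSBTAG00000016580) 341 and *CRY1* (ENSBTAG00000010149) 288. These counts set how finely each gene was measured. They do not rank the genes by abundance, since the row for a gene depends on how its 3′ end was annotated. *TEF* did not pass the filter on low counts, so 8 members were tested among 9839 genes.

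**Figure D1:**
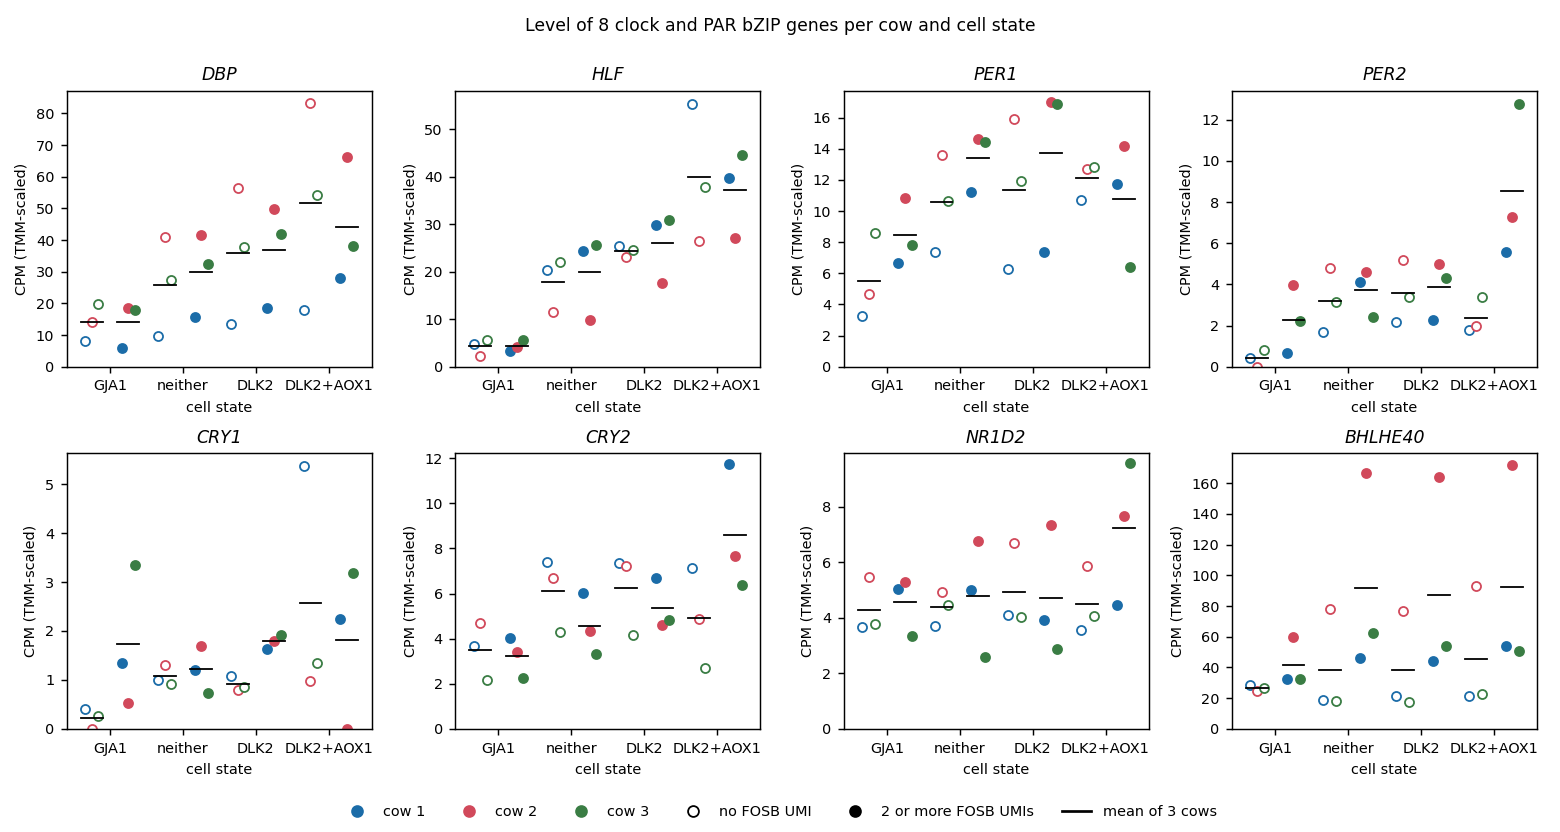
Levels of the 8 tested members in CPM (linear axes from 0) in each of the 8 cell states, with 1 point per cow, open for FOSB-zero and filled for FOSB-high cells, and a line at the mean of 3 cows. *HLF* in the *GJA1* cells (2.34 to 5.64 CPM) lies below every value of the other states, and *BHLHE40* is higher in FOSB-high than in FOSB-zero cells of the same cow in every class.

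The PAR bZIP genes *HLF* and *DBP* followed 1 order of the lineage classes. Both were lowest in *GJA1* cells, higher in cells with neither gene, higher again in *DLK2* cells and highest in *DLK2* cells with *AOX1*. For *HLF*, a factor known for its rhythm in liver and kidney, the means were 4.34 ± 1.19, 18.9 ± 7.22, 25.2 ± 4.22 and 38.5 ± 10.6 CPM in that order (SD, n = 3 cows, mean of both FOSB classes). For *DBP*, the albumin D-box binding protein, they were 14.1 ± 6.21, 28.0 ± 14.4, 36.3 ± 18.8 and 47.9 ± 25.9 CPM. The SD of *DBP* was wide because the cows differed, and the order of the classes held within each of the 3 cows.

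In *GJA1* cells *HLF* was at 4.11, 3.28 and 5.62 CPM in cows 1, 2 and 3, against 22.3, 10.6 and 23.8 CPM in cells with neither gene. The groups did not overlap. The log2 fold change was -2.04 ± 0.20 (SE; edgeR quasi-likelihood test with the cow as a block and Benjamini-Hochberg adjustment over all genes, adjusted p = 1.2e-09), and *HLF* was lower in 6 of 6 pairs of states, a pair being the same cow and FOSB class. *DBP* was at 7.07, 16.3 and 18.9 CPM in *GJA1* cells against 12.6, 41.3 and 30.0 CPM. Its values overlapped between the classes because those of cow 1 were low in both, while within each cow *GJA1* cells were the lower. The log2 fold change of *DBP* was -0.93 ± 0.13 (SE, adjusted p = 5.8e-07, edgeR), lower in 6 of 6 pairs.

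Of the *PER* and *CRY* genes, *PER1*, *PER2* and *CRY2* were called lower in *GJA1* cells, and *CRY1* was not called. *PER2*, whose protein represses CLOCK and BMAL1 together with the CRY proteins, was at 0.537, 1.98 and 1.52 CPM in *GJA1* cells of cows 1, 2 and 3 and at 2.91, 4.70 and 2.78 CPM in cells with neither gene. *PER1*, its paralogue, was at 4.97, 7.75 and 8.21 CPM against 9.30, 14.1 and 12.5 CPM. *CRY2*, a cryptochrome that represses the same complex, was at 3.83, 4.06 and 2.19 CPM against 6.72, 5.51 and 3.81 CPM. In each cow all 3 genes were lower in the *GJA1* cells, and each was lower in 6 of 6 pairs. The log2 fold changes were -1.56 ± 0.36 for *PER2* (adjusted p = 0.00064), -0.65 ± 0.16 for *PER1* (adjusted p = 0.0015) and -0.68 ± 0.18 for *CRY2* (adjusted p = 0.0034, all SE and edgeR).

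The *PER2* value rests on few molecules. In FOSB-zero *GJA1* cells it had 1, 0 and 3 UMIs in the 3 cows, and the 0 of cow 2 allows up to 2.10 CPM (3 counts, before scaling, counting error only). In FOSB-zero cells alone the *PER2* value was -2.48 and was called, and in FOSB-high cells alone it was -0.64 (adjusted p = 0.21, edgeR). *CRY2* was called in FOSB-zero cells (-0.91) and not in FOSB-high cells (-0.46, adjusted p = 0.24), and it lost its call without cow 1 (-0.58, adjusted p = 0.081).

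*BHLHE40* was called lower in *GJA1* cells, and this rested on FOSB-high cells and on cow 2. It was at 30.6, 42.4 and 29.5 CPM in *GJA1* cells against 32.7, 122.4 and 40.4 CPM in cells with neither gene, so that cow 2 differed far more than the others. The log2 fold change was -0.59 ± 0.17 (SE, adjusted p = 0.0045, edgeR), lower in 4 of 6 pairs. Without cow 2 it was -0.07 (adjusted p = 0.70). In FOSB-high cells alone it was -1.13 and in FOSB-zero cells alone -0.05 (adjusted p = 0.91). Of all alternative values of this comparison for *BHLHE40*, 11 kept the call and 4 lost it.

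The members *CRY1* and *NR1D2* did not pass the test in *GJA1* cells. *NR1D2* (REV-ERB beta), a repressor of *ARNTL*, was at 4.34, 5.37 and 3.56 CPM against 4.35, 5.84 and 3.53 CPM, a log2 fold change of -0.12 ± 0.20 (SE, adjusted p = 0.65, edgeR). *CRY1* had -1.08 ± 0.56 (adjusted p = 0.12), from 0 to 4 UMIs per *GJA1* sum, which is too few to show a difference of moderate size.

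In all, 6 of 8 members were called lower in *GJA1* cells and none higher. Among all genes tested 42.6% were called in this comparison, 22.3% lower and 20.2% higher, so that a call here was common. The median log2 fold change of the 8 members was -0.81 and that of all genes -0.04. *GJA1* cells also differed in depth, as given above, and the late differentiation list (5 of 7 genes with a row, none at 0) summed to 16.6 to 48.0 UMIs per 10000 in their states and to 0.697 to 7.21 in the others. The list was *LOR*, *IVL*, *FLG*, *TGM3*, *SPRR3*, *KRT6A* and *S100A8*. The study counts *KRT6A* and *S100A8* among the spinous markers of its *GJA1* cell types. The sum therefore does not rank the classes by stage of differentiation. The median mitochondrial share was 13.9 to 26.4% in the *GJA1* states and 7.53 to 20.3% in the others. With mitochondrial genes left out of the sums the 6 members were still called. The part of the late differentiation genes in the result was not tested. When every cell was thinned to 4000 UMIs before the gates were applied, *HLF*, *DBP* and *BHLHE40* were called lower, *PER1* (-0.19) and *CRY2* (-0.29) were not, and *PER2* was not tested for want of counts.

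**Figure D2:**
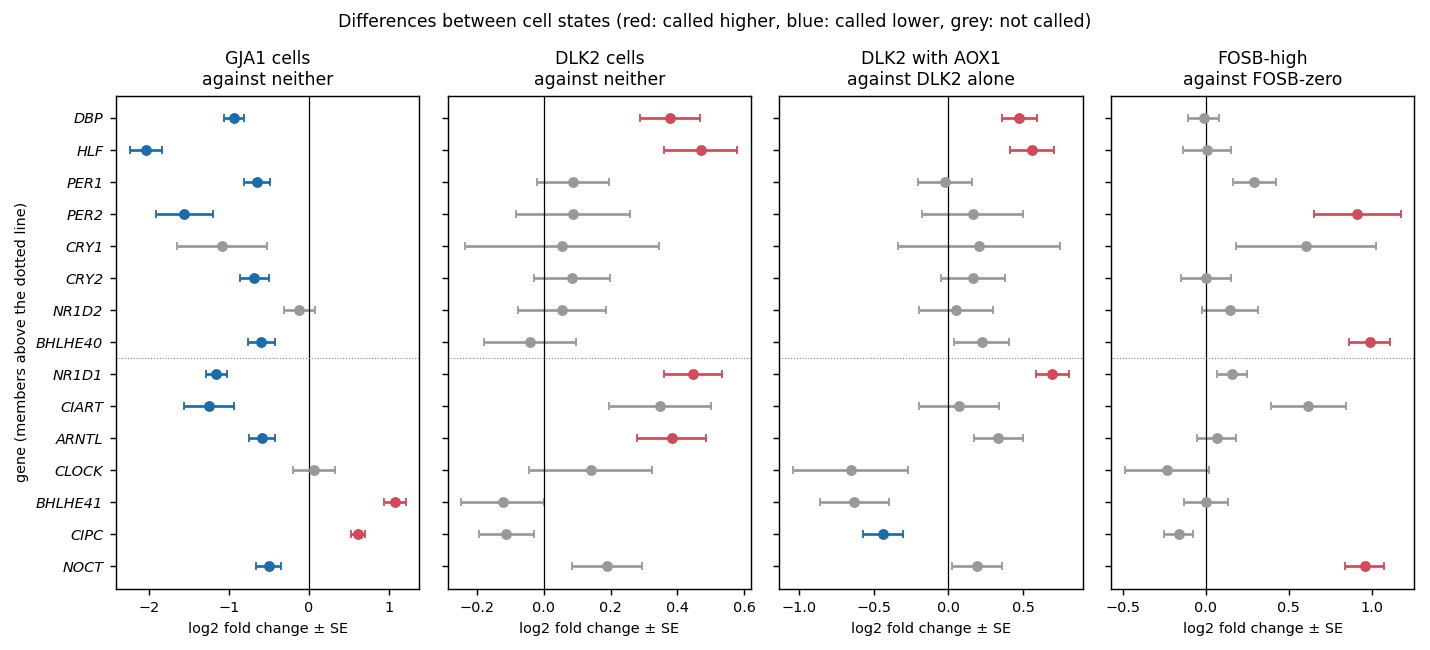
Log2 fold changes with their SE (x axes, which differ in range) for the 8 tested members and 7 other clock genes in 4 comparisons, red where called higher, blue where called lower and grey where not called. *DBP* and *HLF* share their colour with *NR1D1* in the first 3 panels, and in the last panel *BHLHE40*, *PER2* and *NOCT* are called higher.

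In *DLK2* cells *DBP* and *HLF* rose over cells with neither gene, 2 of 8 members called higher against a background of 5.18% of all genes called higher (7.54% lower, 12.7% in either direction). *DBP* was at 15.9, 53.1 and 39.8 CPM in *DLK2* cells of cows 1, 2 and 3, and the values of cells with neither gene are those given above. Each cow was higher in its *DLK2* cells. The log2 fold change was 0.38 ± 0.09 (SE, adjusted p = 0.0035, edgeR), and *DBP* was higher in 6 of 6 pairs. *HLF* was at 27.6, 20.4 and 27.7 CPM, with a log2 fold change of 0.47 ± 0.11 (SE, adjusted p = 0.0032, edgeR) and 6 of 6 pairs higher. Cow 2 had the lowest *HLF* level and the largest difference, and without it the value was 0.26 (adjusted p = 0.13). The call of *DBP* was lost without cow 3 (0.36, adjusted p = 0.058). Within FOSB-zero cells alone *DBP* was called (0.48) and *HLF* was not (0.45, adjusted p = 0.070), and within FOSB-high cells alone neither was (0.28, adjusted p = 0.31 for *DBP* and 0.49, adjusted p = 0.087 for *HLF*). Both genes kept their calls with cells thinned before the gates. The late differentiation list summed to 1.88 to 3.93 UMIs per 10000 in the *DLK2* states and to 3.85 to 7.21 in those with neither gene. The median depth was 8658 to 12142 against 9652 to 13802 UMIs per cell and the median mitochondrial share 9.93 to 16.2% against 10.9 to 20.3%, both lower in the *DLK2* cells in 6 of 6 pairs. The cycling list (4 of 4 genes with a row, none at 0) summed to 0.186 to 1.92 against 0.453 to 2.98 and was lower in the *DLK2* cells in 6 of 6 pairs. With cycling cells removed *DBP* (0.27) and *HLF* (0.43) were still called, and the part of the late differentiation genes was not tested.

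The other 6 members had log2 fold changes between -0.04 and 0.09 in *DLK2* cells, and none was called. For *PER1* the estimate was 0.09 ± 0.11, for *CRY2* 0.09 ± 0.11 and for *BHLHE40* -0.04 ± 0.14 (SE). The estimates of *PER2* and *CRY1* had SEs of 0.17 and 0.29. The difference was thus seen for 2 PAR bZIP genes and not for the *PER* and *CRY* genes, although whether these differ from each other was not tested.

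The same genes, *DBP* and *HLF*, were called higher in *DLK2* cells with *AOX1* than in *DLK2* cells without it, against a background of 2.54% of all genes called higher (4.52% lower, 7.06% in either direction). *HLF* was at 47.5, 26.8 and 41.3 CPM in the cells with *AOX1*. All 3 cows were above their own *DLK2* cells, with a log2 fold change of 0.56 ± 0.15 (SE, adjusted p = 0.016, edgeR) and 6 of 6 pairs higher. *DBP* was at 22.9, 74.7 and 46.2 CPM, with a log2 fold change of 0.47 ± 0.12 (adjusted p = 0.0091) and 5 of 6 pairs higher. Both comparisons share the *DLK2* cells, which are the upper group in the first and the lower in the second, so they are not independent.

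The class with *AOX1* was small, and its calls depended on single cows. *HLF* lost its call without cow 1 (0.53, adjusted p = 0.16) or cow 3 (0.57, adjusted p = 0.071), and *DBP* without cow 2 (0.45, adjusted p = 0.12). With cells thinned before the gates, *DBP* was at 0.02 and *HLF* at 0.69, and neither was called. *PER1*, *PER2*, *CRY1*, *CRY2*, *NR1D2* and *BHLHE40* were at -0.02 to 0.22 and were not called. The cycling list summed to 0.0189 to 0.709 UMIs per 10000 in the states with *AOX1* and to 0.186 to 1.92 in the *DLK2* states without it, and with cycling cells removed *DBP* (0.38) and *HLF* (0.51) were still called. The late differentiation list summed to 0.697 to 2.20 UMIs per 10000 against 1.88 to 3.93, lower with *AOX1* in 6 of 6 pairs. The part of cycling and that of the late differentiation genes were not tested. The median depth was 5503.5 to 9784 UMIs per cell with *AOX1* and 8658 to 12142 without it, and the median mitochondrial share 7.53 to 12.4% and 9.93 to 16.2%.

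*BHLHE40* rose with *FOSB* in every pair of states, and *PER2*, described after it, was the other member called higher. In FOSB-zero cells with neither gene it was at 19.0, 78.0 and 18.2 CPM in cows 1, 2 and 3, and in FOSB-high cells of the same class at 46.4, 166.8 and 62.6 CPM. In *DLK2* cells it went from 21.5, 76.8 and 17.4 CPM to 44.5, 164.0 and 54.0 CPM. In *DLK2* cells with *AOX1* it went from 21.4, 92.9 and 23.0 CPM to 54.2, 171.7 and 51.0 CPM. Every cow was higher in its FOSB-high cells in each of these classes, and cow 2 was the highest cow throughout. Over the 4 classes the log2 fold change was 0.99 ± 0.12 (SE, adjusted p = 8.4e-07, edgeR), higher in 12 of 12 pairs. It was 0.94 to 1.12 with each cow left out in turn, and it was called each time. FOSB-high cells had the higher median depth in 11 of 12 pairs, at 8626 to 20772 against 5503.5 to 16845.5 UMIs per cell. With cells thinned before the gates the value of *BHLHE40* was 0.74 (adjusted p = 0.00019, edgeR) and it was called.

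In *GJA1* cells *BHLHE40* was at 28.4, 25.0 and 26.6 CPM in FOSB-zero cells and at 32.8, 59.9 and 32.5 CPM in FOSB-high cells. Cow 2 rose as in the other classes, while cows 1 and 3 differed little. The log2 fold change was 0.29 ± 0.28 within *GJA1* cells and 1.37 ± 0.19 within cells with neither gene (SE). The difference between them, tested as an interaction term, was -1.08 ± 0.34, with an unadjusted p of 0.0036 and an adjusted p of 1 (edgeR). No gene was called in that interaction (0%), in which 448 of 9839 genes had an unadjusted p under 0.05, and DESeq2 called 0 genes with 316 such genes. With no filter on low counts 25 genes were called there, among them *BHLHE40* (-1.04, adjusted p = 0.00044), and without cow 2 it was called too (-1.29, adjusted p = 0.041). In the interaction for *DLK2* cells 0 genes were called (0%) by edgeR, with 137 genes at an unadjusted p under 0.05, and 0 by DESeq2, with 54. The value of *BHLHE40* there was -0.13 ± 0.27 (SE). The immediate-early list (18 of 18 genes with a row, none at 0) summed to 43.6 to 71.6 UMIs per 10000 in FOSB-high *GJA1* cells and to 59.5 to 119.9 in FOSB-high cells with neither gene, and its part in the difference was not tested.

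**Figure D3:**
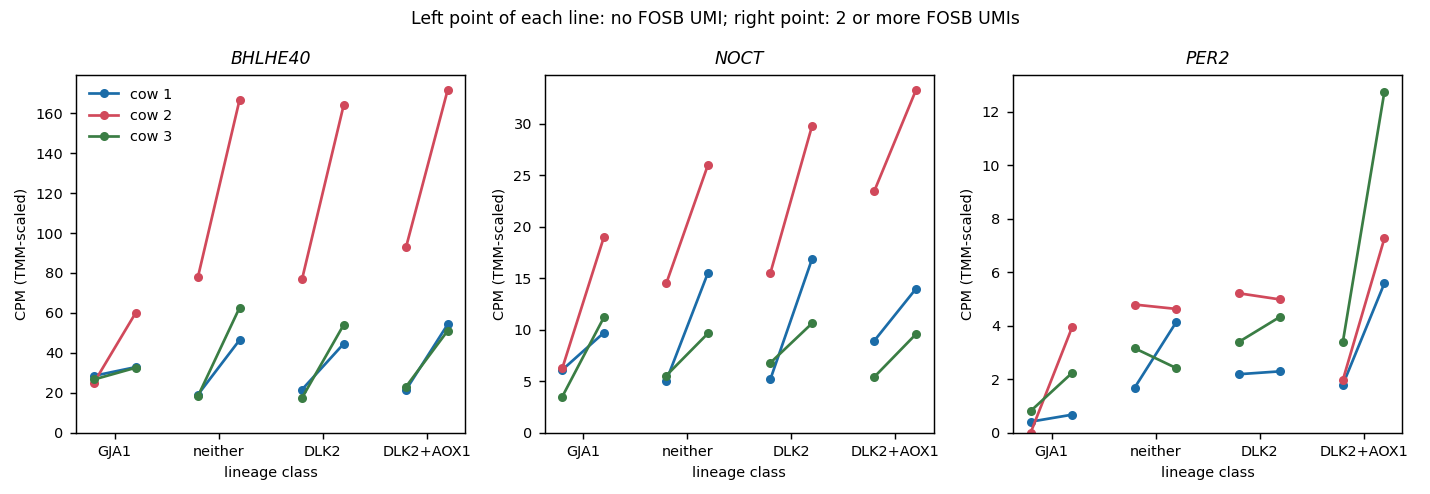
Levels in CPM (linear axes from 0) of *BHLHE40*, *NOCT* and *PER2* in FOSB-zero cells (left end of each line) and FOSB-high cells (right end) of each lineage class, with 1 line per cow. The lines of *BHLHE40* and *NOCT* rise in 12 of 12 pairs, and those of *PER2* in 9 of 12, among them all 3 of *DLK2* cells with *AOX1*.

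*PER2* was called higher in FOSB-high cells, at 0.91 ± 0.26 (SE, adjusted p = 0.031, edgeR), in 9 of 12 pairs. The classes were unlike. In cells with neither gene it was at 1.68, 4.79 and 3.15 CPM in FOSB-zero and 4.14, 4.62 and 2.41 CPM in FOSB-high cells of cows 1, 2 and 3, which overlapped. In *DLK2* cells with *AOX1* it was at 1.79, 1.96 and 3.38 CPM against 5.59, 7.27 and 12.8 CPM, which did not overlap, but these sums held 1 to 19 UMIs of the gene. The fitted values within classes were 0.18, 0.05, 1.40 and 2.02 in cells with neither gene, *DLK2* cells, *DLK2* cells with *AOX1* and *GJA1* cells, and none was called. The *GJA1* sums held 1, 0 and 3 UMIs of *PER2* in FOSB-zero and 2, 15 and 2 in FOSB-high cells. The larger values thus came from the classes with the fewest UMIs of the gene. The call over all classes was lost without cow 1 (0.90, adjusted p = 0.12), without cow 2 (0.69, adjusted p = 0.41) and without cow 3 (1.28, adjusted p = 0.053).

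In the FOSB comparison 2 of 8 members were thus called higher and none lower, where 3.83% of all genes were called higher, 1.25% lower and 5.08% in either direction. *PER1*, which shares with *BHLHE40* a known early response, was at 0.29 ± 0.13 (SE, adjusted p = 0.23, edgeR), with 10 of 12 pairs higher. *DBP* (-0.014 ± 0.09) and *HLF* (0.0065 ± 0.15) had the estimates nearest to 0 together with *CRY2* (0.0037 ± 0.15, SE), and none of them was called. *NR1D2* was at 0.15 ± 0.17 and *CRY1* at 0.60 ± 0.42.

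*TEF* was fitted only when the filter on low counts was dropped. Its levels were 1.33 ± 0.389 CPM in cells with neither gene, 1.79 ± 0.180 in *DLK2* cells, 2.35 ± 2.27 in *DLK2* cells with *AOX1* and 1.50 ± 0.0608 in *GJA1* cells (SD, n = 3 cows). The log2 fold changes were 0.24 ± 0.24 for *DLK2*, 0.27 ± 0.43 for *AOX1*, -0.38 ± 0.40 for *GJA1* and -0.58 ± 0.31 for *FOSB* (SE), and none was called. The mean level in *GJA1* cells was above that in cells with neither gene while the fitted value was below 0, and 3 of 6 pairs were higher, so no direction is given. At 341 UMIs in all, its SEs for *DLK2* and *AOX1* (0.24 and 0.43) were wide beside the differences of *DBP* and *HLF* there. Whether differences of that size could be detected for this PAR bZIP gene was not tested.

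Of 20 other clock genes on the list, 18 had a row and 16 were tested. In *DLK2* cells 3 were called higher and none lower, namely *NR1D1* (0.45), *ARNTL* (0.38) and the kinase gene *CSNK1E* (0.37, all log2), where 5.18% of all genes were called higher and 7.54% lower. In *DLK2* cells with *AOX1* *NR1D1* was higher (0.69) and *CIPC*, which encodes a CLOCK-interacting repressor, was lower (-0.44), where 2.54% and 4.52% of all genes were. In *GJA1* cells 8 were lower and 3 higher, where 22.3% and 20.2% of all genes were, and the list median was -0.26. Of the higher genes, *USP2* passed the filter on low counts only through *GJA1* sums, as given below. *NR1D1* (REV-ERB alpha) kept its call in these 3 comparisons without each cow in turn and with thinned cells. Without the cow as a block it kept the *GJA1* call (-1.18) and lost those for *DLK2* (0.49, adjusted p = 0.67) and *AOX1* (0.73, adjusted p = 0.29). *ARNTL* lost its *DLK2* call without cow 2 (0.25) or cow 3 (0.45, adjusted p = 0.050) and with thinned cells (0.09), *CSNK1E* without any of the cows (0.32 to 0.48) and with thinned cells (0.24), and *CIPC* its *AOX1* call without any of the cows (-0.54 to -0.36) and with thinned cells (-0.51).

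*NR1D1* was at 24.0, 31.0 and 18.6 CPM in cells with neither gene of cows 1, 2 and 3, and at 31.0, 46.1 and 25.0 CPM in *DLK2* cells. With *AOX1* it was at 53.3, 74.5 and 40.7 CPM, and in *GJA1* cells at 9.01, 11.9 and 10.4 CPM. Each cow had the same order of classes as for *HLF*, and the *GJA1* cells did not overlap with any other class. Its log2 fold change in *GJA1* cells was -1.16 ± 0.13 (SE, adjusted p = 1.9e-08, edgeR).

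The genes that were higher in *GJA1* cells were *BHLHE41*, *CIPC* and *USP2*. *BHLHE41* (DEC2), the paralogue of *BHLHE40*, was at 34.5, 33.2 and 40.5 CPM against 12.9, 23.3 and 14.1 CPM in cells with neither gene. The classes did not overlap, and the log2 fold change was 1.08 ± 0.14 (SE, adjusted p = 1.1e-07, edgeR). This was opposite in sign to that of *BHLHE40*, which rested on FOSB-high cells and on cow 2. *CIPC* was at 46.6, 50.7 and 40.5 CPM against 32.6, 30.6 and 24.3 CPM, with 0.62 ± 0.09 (adjusted p = 2.0e-06), and *USP2* (1.21) lost its call without cow 2 (0.96, adjusted p = 0.052). *USP2* also lost it without the cow as a block (1.19, adjusted p = 0.092, edgeR). It had no value without cow 1 or with thinned cells. *USP2* passed the filter on low counts only through sums of *GJA1* cells, the group where it was then called higher. Its highest level was 6.07 CPM in a *GJA1* sum and 2.02 CPM in the other sums, so its call carries no weight here. Among the lower genes, *TIMELESS* (-0.57) and *CSNK1E* (-1.08) kept their calls without each cow. *ARNTL* (-0.59) lost its call without cow 1 (-0.31), *CIART* (-1.25) without cow 2 (-0.93), and *NOCT* (-0.50) without cow 2 (-0.35) or cow 3 (-0.50, adjusted p = 0.054). With thinned cells *TIMELESS* (-0.31) and *NOCT* (-0.10) were not called. Counting all *GJA1* calls of other clock genes that had a value, 8 of 10 were kept without cow 1 and 8 of 11 without cow 2. Without cow 3 it was 9 of 11, and with thinned cells 6 of 9.

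With *FOSB*, 1 of the 16 was called higher, where 3.83% of all genes were. *NOCT* (nocturnin), a rhythmic gene that is also known to respond early to stimuli, had 0.96 ± 0.12 (SE, adjusted p = 4.7e-07, edgeR) and was higher in 12 of 12 pairs, as *BHLHE40* was. The row named *NPAS2* was left out of the list. It was the row with the 28th highest UMI total, at 59.7 to 74.4 UMIs per 10000 in the 3 cows, and the ribosomal protein gene *RPL31*, its neighbour in the RefSeq table, had no row of its own, so its reads may not be those of *NPAS2*.

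A list of 10 glucocorticoid-responsive genes was read beside the clock, since glucocorticoids are known to set peripheral clocks. In *DLK2* cells *CDKN1C* (1.00) and *ZBTB16* (1.28) were higher and *MT2A* (-1.47) lower, where 5.18% of all genes were called higher and 7.54% lower. In *DLK2* cells with *AOX1* *CDKN1C* (1.31), *ZBTB16* (1.21) and *PDK4* (0.87) were higher and *MT2A* (-0.92) lower, where 2.54% and 4.52% of all genes were. In the comparison for *AOX1*, *ZBTB16* lost its call without cow 2 (1.12, adjusted p = 0.11) and with thinned cells (0.99), and *PDK4* without cow 1 (0.79, adjusted p = 0.052). *ZBTB16* had 241 of its 345 UMIs in cow 1, and without that cow it did not pass the filter on low counts. In *GJA1* cells 6 were lower and 1 higher (22.3% and 20.2% of all genes), with a median of -0.59. Of these, *MT2A*, the gene that was higher, lost its call without cow 2 (0.19), *ERRFI1* without cow 2 (-0.32), and *TSC22D3* without cow 1 (-0.62) or cow 3 (-0.24) and with thinned cells (-0.36). With *FOSB* 4 were higher (3.83% of all genes), *SGK1*, *ERRFI1*, *PDK4* and *DUSP1*, with a median of 0.81, and 6 were not called. *DUSP1* is also on the immediate-early list and is counted in both. The immediate-early list, of which 17 of 18 genes were tested, had no call in *DLK2* cells, 2 higher with *AOX1* (*JUN* 0.49, *JUND* 0.38, both lost without cow 1 or cow 3, and *JUND* also with thinned cells, at 0.36), 11 lower and 1 higher in *GJA1* cells, and 16 higher with *FOSB*. In *GJA1* cells *NR4A1*, the gene that was higher (0.75), lost its call without cow 1 (0.63, adjusted p = 0.24), and *ATF3* and *IER3* lost theirs without cow 1 or cow 2. With *FOSB*, *EGR3* was not called with thinned cells (0.75). The median of the list with *FOSB* was 1.85, with *FOSL1* at 3.24 and *ATF3* at 2.61. *FOSL1*, counted among the 16, passed the filter on low counts only through FOSB-high sums, the group where it was then called higher. Its FOSB-zero sums were at most 1.74 CPM, and those of *DLK2* cells with *AOX1* were all 0, so its call and size carry no weight here.

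After the mean of each cow was taken out, the log2 CPM of members were compared across the 24 sums, which share cows and cells of a digest and are not independent. *DBP* and *HLF* were the closest of 28 pairs (Pearson r = 0.92). *CRY2* and *PER2* followed *HLF* with r = 0.75 and 0.72, and *NR1D2* had no r above 0.41 with another member. *BHLHE40* was closest to *PER2* among the members (0.62) and reached 0.84 with *NOCT*. *HLF* reached 0.95 with *NR1D1* and 0.92 with *ARNTL*, and *DBP* had -0.92 with *CIPC*. The 5 genes most like the mean standardized level of the 8 members were *GABARAPL1* (r = 0.95), *FOXO1* (0.95), *YDJC* (0.94), *PDE4A* (0.94) and *IGFBP7* (0.94).

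The cows differed in their clock genes over all cells, with *ARNTL* and its target *DBP* in opposite order. *ARNTL* was at 0.193, 0.0521 and 0.0802 UMIs per 10000 in cows 1, 2 and 3, highest in cow 1 and lowest in cow 2 in 8 of 8 states. *DBP*, which CLOCK and BMAL1 activate, was at 0.148, 0.395 and 0.318 and was lowest in cow 1 in 8 of 8 states and highest in cow 2 in 7. *CIART*, a repressor of the same complex, was at 0.0113, 0.0585 and 0.0348 and was also lowest in cow 1 in 8 of 8 states. *NR1D1* did not share this order. It was at 0.267, 0.348 and 0.194, highest in cow 2 in 7 of 8 states and lowest in cow 3 in 6.

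Of the other members, *PER1* and *PER2* were lowest in the same cow as *DBP*. *PER1* was at 0.0848, 0.132 and 0.118 UMIs per 10000, lowest in cow 1 in 7 of 8 states, and *PER2* at 0.0236, 0.0416 and 0.0326, lowest in cow 1 in 6. *CRY2*, at 0.0630, 0.0465 and 0.0432, was highest in cow 1 in 7 of 8 states. *CRY1* (0.0164, 0.0127 and 0.00998) and *TEF* (0.0185, 0.0128 and 0.0142) were also highest in cow 1, but in only 3 and 5 of 8 states. *HLF* did not share the cow order of *DBP*, although it shared its order of lineage classes. It was at 0.223, 0.130 and 0.241, lowest in cow 2 in 7 of 8 states.

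*BHLHE40* was at 0.354, 1.13 and 0.249 UMIs per 10000 in cows 1, 2 and 3, a 4.53-fold range that was the widest of the 9 members. It was highest in cow 2 in 7 of 8 states, and *NOCT*, at 0.0989, 0.206 and 0.0628, in 8 of 8. *NR1D2* was at 0.0452, 0.0589 and 0.0433, highest in cow 2 in 7 of 8. The immediate-early list ranged from 21.9 to 103.3 UMIs per 10000 over the cows, and *JUND* and *EGR1* were highest in cow 2 and lowest in cow 3 in 8 of 8 states. Not all genes of the list shared this order. *EGR3* was highest in cow 1 in 7 of 8 states, *NR4A1* in 5 and *FOS* in 4. With 1 library per cow no test between cows was possible, and the part of sampling time, digestion or library in these values was not tested.

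**Figure D4:**
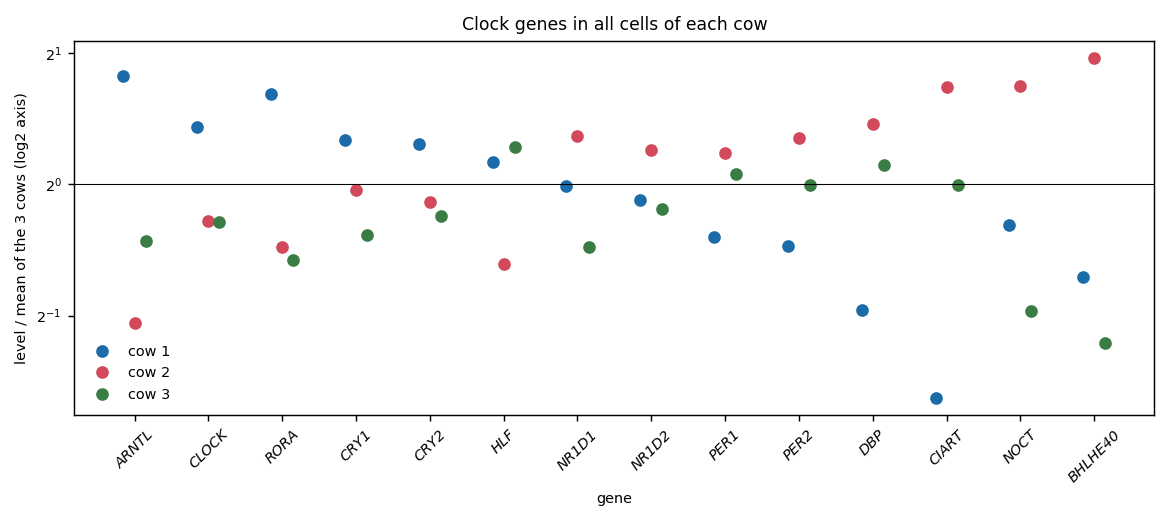
Level of 14 clock genes over all cells of each cow divided by the mean of the 3 cows (log2 axis), with 1 point per cow. Cow 1 lies highest for *ARNTL* and lowest for *DBP* and *CIART*, and cow 2 lies highest for *BHLHE40* and *NOCT*.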

How the data were processed

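Single-cell libraries of 3 cows were made with Chromium 3' chemistry and processed by the authors with Cell Ranger 3.1.0 (per the labels) against the bovine assembly ARS-UCD1.2. The authors deposited whole-number UMI counts, filtered for cell quality and doublets, together with a natural log normalized table that gave the row names. On 502 rows the 2 files agree within 1e-06. The barcode suffix was taken as the cow. No cell type annotation was used. No genomic positions are given, because the RefSeq table at hand is of another assembly.

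Counts were summed per cow and cell state, and all 24 sums had the 10 cells required. edgeR 4.0.16 in R 4.3.3 was run with TMM, filterByExpr, the quasi-likelihood test and the cow as a block, since states of a cow come from the same animal. With state means removed, the correlation of sums averaged 0.41 to 0.50 within a cow. The average of -0.22 between cows is partly set by this removal, after which the deviations of the cows in a state sum to 0. The study tested cells by a Wilcoxon test, which takes cells as replicates, so sums were tested instead. A gene was called at an adjusted p under 0.05 (Benjamini-Hochberg over 9839 genes) and a log2 fold change of more than 0.25 either way. The common biological coefficient of variation was 0.0865. A simulation for the *DLK2* comparison changed 200 genes, and 9459 genes passed its filter. Of the increases that passed, 100% of 2-fold and 98% of 1.5-fold ones were recovered, with 9 false calls. Its counts were drawn independently around 1 mean per gene, with no differences between cows. It therefore cannot give the power or the rate of false calls for these data. The *DLK2* differences of *DBP* (1.3-fold) and *HLF* (1.385-fold) were smaller than any simulated. Means weight the cows equally. The p-values rest on 24 sums of 3 cows, in which both FOSB sums of a cow and class entered separately, without a cow-by-class term. They measure the spread between sums within cows and not replication over 3 animals.

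Alternatives were DESeq2 1.42.0, RLE scaling, no filter on low counts, no block, each cow left out, cells thinned to 4000 UMIs before gating, with 1 UMI as positive for all 4 genes (which left out 915 cells), other gates (*FOSB* at 4 UMIs, *GJA1* and *FOSB* at 1), and cells without mitochondrial genes, with a share under 2% removed (270 cells) or without cycling cells (3193). Values within 1 FOSB class or 1 lineage class were added after seeing the data. The members and lists were chosen with earlier results of these data known. Named were all members, the other clock genes, the glucocorticoid-responsive genes, the immediate-early genes with the largest changes and the 5 genes most like the members. Some genes of these lists are not reported here, though counts and medians of a list still hold them. Sums and figures were made in Python 3.11.15 (pandas 2.3.3, numpy 2.4.6, matplotlib 3.10.9 and scipy 1.17.1).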

Additional observations from a re-analysis of the deposited data

Results flagged for a closer look

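Among the 8 tested members, every pair of the 4 lineage classes was searched for *FOSB* differences of opposite direction in all 3 cows. Only *CRY2* was found, and a search of this size can return such a case by chance. In *DLK2* cells with *AOX1* it was higher in FOSB-high cells of all 3 cows (11.7, 7.65 and 6.38 CPM against 7.15, 4.89 and 2.71 CPM in cows 1, 2 and 3), with a fitted log2 fold change of 0.83. In cells with neither gene it was lower in FOSB-high cells of all 3 cows (6.03, 4.34 and 3.33 CPM against 7.40, 6.67 and 4.28 CPM), with -0.46. Neither value was called, the sums with *AOX1* held 2 to 21 UMIs of *CRY2*, and the difference between the classes was not tested.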

How the results depend on the processing

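For the 12 called member values, 182 alternative values were computed, of which 139 kept direction and call, 43 kept the direction but lost the call and 0 reversed. The cause was not tested. Depth limits *CRY1*, *PER2* and *TEF* most.

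Without the replicate block, which ignores that states come from the same cow, the members called fell to 0 for *DLK2*, 0 for *AOX1*, 2 for *GJA1* (*HLF* and *PER2*) and 0 for *FOSB*, and the genes called to 23, 22, 1899 and 111, from 1252, 695, 4190 and 500. Of the calls of other clock genes it kept 0 of 3, 0 of 2, 5 of 11 and 0 of 1 in the same order. Leaving out 1 cow gave 1 to 2 members called for *DLK2* and 1 each time for *AOX1* and *FOSB*, and 579 to 918, 291 to 437 and 306 to 401 genes. The lowest counts of genes for *DLK2* came without cow 2 and those for *AOX1* and *FOSB* without cow 1. For the *GJA1* interaction it gave 0 to 1 members and 0 to 2 genes. Thinned cells gave 0 members and 229 genes for *AOX1*, 3 and 2228 for *GJA1*, and 1 and 159 for *FOSB*. *FOSB* at 4 UMIs gave 1 member and 466 genes for *AOX1*, where *HLF* was lost (0.45, adjusted p = 0.12), and 1 and 520 for *FOSB*, where *PER2* was lost (0.78, adjusted p = 0.13). Without cycling cells 780 genes were called for *DLK2*. With no filter on low counts the *GJA1* interaction called 1 member, *BHLHE40* (-1.04), and 25 genes. FOSB-zero cells alone gave 1 member and 680 genes for *DLK2* and 0 and 259 for *AOX1*, and FOSB-high cells alone 0 and 330, and 0 and 174. In the *FOSB* comparison cells with neither gene alone gave 1 member and 397 genes, *DLK2* cells alone 1 and 296 genes, *DLK2* cells with *AOX1* alone 0 and 17, and *GJA1* cells alone 0 and 86.

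Values that were not called and changed sign follow by comparison. For *DLK2*, *PER1* was -0.014 with *FOSB* at 4 UMIs and -0.052 to 0.20 with a cow left out. *CRY1* was -0.21 in FOSB-zero cells and -0.10 to 0.35 with a cow left out. *NR1D2* was -0.034 without cycling cells and -0.084 to 0.16 with a cow left out. *BHLHE40* was 0.22 with thinned cells, 0.023 in FOSB-zero cells and -0.071 to 0.0023 with a cow left out. For *AOX1*, *PER1* was 0.016 with DESeq2, 0.0039 with RLE scaling, 0.24 with *FOSB* at 4 UMIs, 0.038 in FOSB-zero cells and -0.21 to 0.21 with a cow left out. *PER2* was -0.23 with *FOSB* at 4 UMIs, -0.52 in FOSB-zero cells and -0.15 to 0.60 with a cow left out. *CRY1* was -0.11 with *FOSB* at 4 UMIs, -0.74 in FOSB-high cells and -0.91 to 0.92 with a cow left out. *CRY2* was -0.10 with thinned cells and -0.43 in FOSB-zero cells. *NR1D2* was -0.11 with *FOSB* at 4 UMIs, -0.10 in FOSB-zero cells and -0.038 to 0.21 with a cow left out. *BHLHE40* was -0.10 with thinned cells. For *GJA1*, *NR1D2* was -0.19 to 0.0050 with a cow left out. For *FOSB*, *CRY1* was -0.96 in *DLK2* cells with *AOX1*. *CRY2* was -0.10 with *FOSB* at 4 UMIs, -0.015 without cells of low mitochondrial share, -0.037 without cycling cells, -0.46 in cells with neither gene, -0.35 in *DLK2* cells, -0.0088 in *GJA1* cells and -0.070 to 0.19 with a cow left out. *DBP* was 0.015 with DESeq2, 0.0014 with no filter, 0.24 with thinned cells, 0.070 with gates at 1 UMI, 0.24 in cells with neither gene, 0.044 in *DLK2* cells and -0.083 to 0.10 with a cow left out. *HLF* was -0.028 without the replicate block, -0.15 with *FOSB* at 4 UMIs, -0.029 in *DLK2* cells with *AOX1*, -0.027 in *GJA1* cells and -0.055 to 0.12 with a cow left out.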
